A study of Mus musculus with 6 samples.

Results

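The 43 genes described here are those of fatty acid oxidation and ketone body handling, with their transcriptional regulator Ppara, that were measured in mouse liver after knockdown of the transcription factor Atoh8. They were chosen by gene symbol from a list of pathway genes, though the list was made with earlier results of these data known. All 43 were found among the 47729 genes of the count files, and all 43 passed the filter on low counts that left 13767 genes for testing. By the usual place of the protein, 21 are mitochondrial, 9 are peroxisomal, 6 are found in several places or have an uncertain place, and 7 are neither.

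Total RNA was taken from livers of C57BL/6 mice that had all eaten a diet with 0.1% DDC, a compound that injures the bile ducts and causes cholestasis, for 17 days. The control group (3 libraries) is labelled wild type and carries shNC, the knockdown group (3 libraries) carries shAtoh8, and no library without DDC was used here. The labels give the source as liver and the cell type as hepatocyte. How the hairpins were delivered, the cells they reached and the age of the mice are not given in the sources used here. Whether each replicate is a mouse of its own is not stated, and the p-values below therefore reflect the spread among these libraries alone, which may be technical. In whole liver RNA, fewer cells of a type and less RNA per cell cannot be told apart.

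Reads assigned to genes ranged from 31912058 to 37969644 per library, so that 3 reads corresponded to between 0.0699 and 0.0994 CPM (counts-per-million, scaled by TMM, the trimmed mean of M-values). Control replicate 1 stood apart: its log2 CPM correlated with those of the other controls at 0.907 and 0.916, against 0.980 to 0.985 among the knockdown libraries and 0.984 between control replicates 2 and 3. Atoh8 itself was at 63.8, 16.8 and 16.4 CPM in control replicates 1, 2 and 3 and at 10.2, 9.83 and 5.64 CPM in the knockdown libraries (log2 fold change -1.92, SE 0.58, adjusted p = 0.197 by edgeR). Without control replicate 1 the log2 fold change of Atoh8 was -0.95 (SE 0.23, adjusted p = 0.0115). Of 8 hepatocyte markers 7 were found by symbol, and they summed to between 98887 and 140822 CPM, most of it Alb, with sums that overlapped between the groups. All 7 log2 fold changes of these markers were below 0 (median -0.52). The groups did not overlap in 3 of them (Ttr, Cps1 and Asgr1, all lower in the knockdown), beside 10.0% lower over all genes. By edgeR 0 were called and by DESeq2 2 were called lower, beside 2.16% of all genes for the latter. Without control replicate 1 their median was -0.11, with 2 called lower, beside 16.1% of all genes. Spp1 and Acta2 were called higher in the knockdown, the first among 6 cholangiocyte markers (sums 39.5 to 51.7 CPM in controls, 332 to 554 CPM in knockdown, nearly all of it Spp1, with Krt19 at most 0.17 CPM) and the second among 6 stellate cell or fibroblast markers (103 to 150 CPM and 190 to 305 CPM). The 6 Kupffer cell markers summed to 198 to 324 CPM in controls and 325 to 386 CPM in knockdown, with 0 called. The 6 markers of lipid-associated or monocyte-derived macrophages summed to 212, 74.2 and 75.3 CPM in control replicates 1, 2 and 3 and to 135 to 213 CPM in knockdown, so that the groups overlapped through control replicate 1, with 0 called. Without that library, the fit from which member calls are given below, 5 of these 6 markers (median 1.81), 3 of 6 Kupffer cell markers and 3 of 6 stellate cell or fibroblast markers were called higher. Over all genes 16.5% were called higher in that fit. Sums over 5 endothelial markers overlapped (116 to 130 CPM and 101 to 145 CPM), with 0 called in either fit, and adipocyte and muscle markers were at or below 0.032 CPM. The part of these shifts in the results below was not tested.

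Fatty acids enter hepatocytes, are bound to coenzyme A, and are carried as carnitine esters into mitochondria, where the enzymes of the beta-oxidation spiral shorten them step by step and pass electrons to the respiratory chain. Peroxisomes run a parallel spiral that handles very long chain and branched fatty acids and hands on the shortened chains. PPAR-alpha, the nuclear receptor encoded by Ppara, is activated by fatty acids, and many genes of both routes are known targets of it. It binds with its partner RXR to a direct repeat of the hexamer AGGTCA with a spacer of 1 base, and in fasting the acetyl-CoA from this pathway feeds ketone bodies.

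The promoters of the members were read for that repeat because it is the letter pattern that a shared regulator of these genes is known to bind. RefSeq windows of GRCm38.p6, from 250 bases before to 50 bases after each gene's start, matched 36 of the 43 members by symbol and gave 39 windows. The search used 2 copies of AGGTCA in the same direction with any 1 base between them, on both strands. An exact copy was in 0 of the 39 member windows and in 13 of 32851 windows of all genes (0.0396%). With up to 1 mismatch there were matches in 2 member windows (5.13%) against 0.554% of all windows, and with up to 2 mismatches in 6 (15.4%) against 3.86%. A single AGGTCA was in 10 member windows (25.6%) and in 16.3% of all windows, and any exact repeat holds it. Both windows of Acot3, which overlap almost entirely, are among the 10. The matches with 1 mismatch were in Fabp1, as TGACCTATGGCCT starting at position -67 from the RefSeq start site, and in Acot12, as TGACCTCTCACCT at -110. Those with 2 mismatches were in Acot4 (TGACCTTTGGCCG at -13), Echs1 (AGGTCACGGGTCC at -83), Etfa (TTACCTTTGCCCT at -77) and Slc25a20, the last of them after the start site.

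Printed here are the bases of the window before the earlier of the RefSeq and GENCODE starts of Fabp1, which held one of the closest matches, and of the neighbouring thioesterase genes Acot2, Acot1, Acot4 and Acot3, whose values went in opposite directions. Each is on the plus strand, written 5′ to 3′ from RefSeq, with capitals for the repeat with up to 2 mismatches. They lie at chr6:71199629-71199826 for Fabp1, chr12:83987611-83987860 for Acot2, chr12:84009252-84009489 for Acot1, chr12:84038129-84038378 for Acot4 and chr12:84051894-84052143 for Acot3. Only the Fabp1 and Acot4 sequences hold capitals, in both of them with the repeat reading on the minus strand, while Acot2, Acot1 and Acot3 have 3, 4 and 3 mismatches at their best position and so none. The GENCODE start of Fabp1 lies before its RefSeq start, so the printed run stops short of the site from which -67 is counted. A match describes letters only, and its absence concerns only these windows.
Fabp1: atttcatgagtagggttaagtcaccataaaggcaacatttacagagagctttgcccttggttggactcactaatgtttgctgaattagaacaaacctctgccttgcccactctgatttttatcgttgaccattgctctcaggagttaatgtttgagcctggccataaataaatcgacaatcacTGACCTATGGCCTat
Acot2: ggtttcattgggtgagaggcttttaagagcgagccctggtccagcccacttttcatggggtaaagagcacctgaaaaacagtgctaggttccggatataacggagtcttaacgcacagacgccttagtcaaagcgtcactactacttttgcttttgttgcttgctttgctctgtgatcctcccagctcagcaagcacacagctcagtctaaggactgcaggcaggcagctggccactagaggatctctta
Acot1: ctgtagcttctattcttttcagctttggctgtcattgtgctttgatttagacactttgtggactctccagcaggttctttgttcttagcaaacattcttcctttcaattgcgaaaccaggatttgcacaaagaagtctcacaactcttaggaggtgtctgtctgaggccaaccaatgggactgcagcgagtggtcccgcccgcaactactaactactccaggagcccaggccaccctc
Acot4: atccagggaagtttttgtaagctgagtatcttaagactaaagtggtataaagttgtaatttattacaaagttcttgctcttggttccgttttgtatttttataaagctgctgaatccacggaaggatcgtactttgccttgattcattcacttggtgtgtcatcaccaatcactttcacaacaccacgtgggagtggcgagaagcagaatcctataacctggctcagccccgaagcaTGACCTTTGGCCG
Acot3: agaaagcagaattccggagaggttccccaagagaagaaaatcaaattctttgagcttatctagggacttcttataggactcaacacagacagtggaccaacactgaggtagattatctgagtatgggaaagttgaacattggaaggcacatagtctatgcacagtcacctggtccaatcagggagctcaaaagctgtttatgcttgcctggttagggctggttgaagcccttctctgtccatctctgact

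With all 6 libraries, no member passed an adjusted p of 0.05 in either direction (edgeR quasi-likelihood test, Benjamini-Hochberg adjustment over all 13767 genes). In the same fit 0.741% of all genes were called higher and 0.123% lower in the knockdown, so a count of 0 among 43 is near that background. At an unadjusted p under 0.05 there were 4 members higher and 7 lower, where the background was 9.14% higher and 5.40% lower. Most log2 fold changes were below 0 (31 of 43), and their median was -0.24 against -0.05 for all genes tested, with a range from -1.74 for Acot3 to 1.84 for Vnn1. The groups did not overlap in 10 members with lower and 6 with higher CPM in the knockdown, and over all genes this held for 10.0% and 13.0%. Throughout, overlap was read on the TMM scale unless another is named, and the TMM factors themselves separated the groups. Scaling by total gene reads instead of TMM moved the median of all genes to 0.19 and that of the members to -0.00, which left the members 0.19 below all genes in both cases.

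Leaving out control replicate 1 gave 5 members called higher and 12 called lower, against 16.5% and 16.1% of the genes then tested. Leaving out any one of the other 5 libraries gave 0 member calls. The members called higher without that library were Acot1, Acot2, Bdh1, Vnn1 and Angptl4, and those called lower were Ppara, Acsl1, Crat, Acadl, Acadm, Hadh, Etfa, Pex11a, Acad11, Acot3, Acot4 and Acat1. DESeq2 on all 6 libraries called Acot2 and Vnn1 higher and Acot3 and Acot4 lower, where 4.62% and 2.16% of genes were called. With an offset for GC content and length in the edgeR fit on all 6 libraries, Vnn1 was called higher (1.75, adjusted p = 0.0365) and Acat1 lower (-0.77, adjusted p = 0.0465), beside 2.32% and 2.19% of genes. In the members, control replicate 1 differed from the mean of the other controls by a median of 0.50 on the log2 scale, against 0.70 over all genes, and control replicates 2 and 3 differed by a median of 0.11. The members more than 1 away were Fabp1 (-3.78), Vnn1 (-1.63), Ppargc1a (-1.50), Acot1 (-1.39), Angptl4 (1.16) and Acot3 (1.07).

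**Figure D1:**
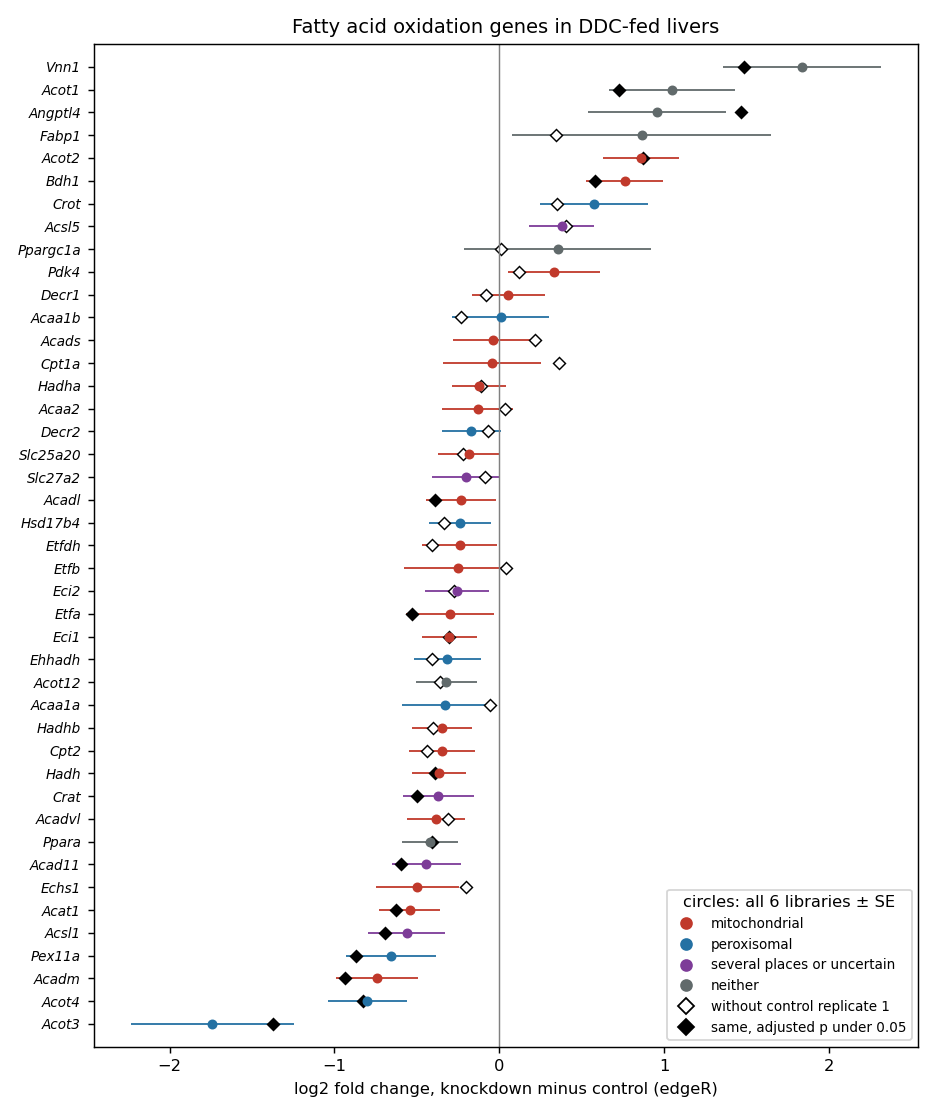
Log2 fold change of each of the 43 genes, knockdown against control, ordered by the value from all 6 libraries. Circles, coloured by the place of the protein, show all 6 libraries with the standard error. Diamonds, drawn without error bars, show the fit without control replicate 1. Points left of 0 are lower in the knockdown. Vnn1 (1.84) and Acot3 (-1.74) lie at the ends, and no point from all 6 libraries passed the adjusted test.

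Ppara, the receptor gene itself (ENSMUSG00000022383, GRCm38 chromosome 15), was at 89.8, 91.0 and 89.7 CPM in control replicates 1, 2 and 3 and at 72.2, 71.2 and 59.0 CPM in the knockdown libraries. On the TMM scale all 3 controls lay above all 3 knockdown libraries, and control replicate 1 did not differ from the other controls. The log2 fold change was -0.42 (SE 0.17, unadjusted p = 0.0415, adjusted p = 0.317), and without control replicate 1 Ppara was called lower at a similar value, -0.41 (SE 0.13, adjusted p = 0.0367). Scaled by total gene reads, the value of Ppara on 6 libraries was -0.18 (SE 0.16, adjusted p = 0.629 by edgeR). Ppargc1a, a coactivator of PPAR-alpha and of mitochondrial genes, was at 6.13, 18.2 and 16.8 CPM in controls and at 9.82, 31.7 and 11.1 CPM in the knockdown. Its groups overlapped and knockdown replicate 2 was the highest library. Its log2 fold change of 0.35 (SE 0.57) became -0.35 without knockdown replicate 2.

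Of the 4 genes of fatty acid entry and activation, none was called on 6 libraries, and the log2 fold changes had both signs. Fabp1, the abundant fatty acid binding protein of the hepatocyte cytosol, was at 13.1, 155 and 212 CPM in controls and at 219, 215 and 259 CPM in the knockdown. The groups did not overlap, but control replicate 1 was far below every other library, and the log2 fold change of 0.86 (SE 0.79, adjusted p = 0.673) was 0.35 (SE 0.17, adjusted p = 0.155) without it. Acsl1, the main long-chain acyl-CoA synthetase of liver, was at 350, 424 and 551 CPM in controls and at 263, 354 and 280 CPM in the knockdown. Knockdown replicate 2 came just above control replicate 1, so that the groups overlapped. The log2 fold change was -0.56 (SE 0.24, adjusted p = 0.334), and Acsl1 was called lower without control replicate 1 at -0.69 (SE 0.18, adjusted p = 0.0150). Acsl5, another acyl-CoA synthetase, had the opposite sign: 350, 331 and 358 CPM in controls and 430, 381 and 542 CPM in the knockdown. Those groups did not overlap, yet Acsl5 was called neither on 6 libraries (0.38, SE 0.20, adjusted p = 0.441) nor without control replicate 1 (0.40, SE 0.18, adjusted p = 0.114). Slc27a2, a transporter and very long chain acyl-CoA synthetase, ranged from 490 to 658 CPM in controls and from 455 to 582 CPM in the knockdown (log2 fold change -0.20, SE 0.21, and 0.04 when scaled by total gene reads).

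The carnitine shuttle had no call on 6 libraries among its 5 genes. Without control replicate 1 there was 1 call, lower, beside 16.1% of all genes called lower and 16.5% called higher. That gene was Crat, carnitine acetyltransferase, with 35.7, 50.6 and 49.6 CPM in controls and 31.4, 33.6 and 40.1 CPM in the knockdown. The groups overlapped through control replicate 1, and its log2 fold change was -0.37 (SE 0.22, adjusted p = 0.497), or -0.50 (SE 0.14, adjusted p = 0.0217) without that library. Cpt1a, which makes the carnitine ester at the outer membrane and is the regulated entry step, had the order of the groups set by the same library. It was at 713, 402 and 336 CPM in controls and at 448, 493 and 466 CPM in the knockdown: the highest value and the lowest values were all controls. Its log2 fold change was -0.04 (SE 0.30, adjusted p = 0.965) on 6 libraries and 0.36 (SE 0.15, adjusted p = 0.0928) without control replicate 1. Crot, the peroxisomal carnitine octanoyltransferase and the smallest unadjusted p of the shuttle, was at 167, 381 and 232 CPM in controls and at 313, 471 and 376 CPM in the knockdown. Those groups overlapped, with a log2 fold change of 0.57 (SE 0.33, adjusted p = 0.487). Cpt2 of the inner membrane had -0.35 (SE 0.20) and the carnitine carrier Slc25a20 -0.18 (SE 0.18), the latter 0.05 when scaled by total gene reads.

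On the TMM scale the groups did not overlap in 7 of 11 genes of the mitochondrial spiral, all lower in the knockdown. The background over all genes was 10.0%. Overlap was not read gene by gene by total gene reads, where the summed reads of these 11 genes overlapped between the groups. Log2 fold changes of the spiral were below 0 in 10 of 11 genes, with a median of -0.30. Acadm, the medium-chain acyl-CoA dehydrogenase (ENSMUSG00000062908, chromosome 3), was at 322, 581 and 512 CPM in controls and at 264, 288 and 296 CPM in the knockdown. The groups did not overlap, and control replicate 1 lay nearest to the knockdown. Its mean was 472 ± 134 CPM in controls and 282 ± 16.9 CPM in the knockdown (SD, n = 3), a log2 fold change of -0.74 (SE 0.25, unadjusted p = 0.0196, adjusted p = 0.236). Without control replicate 1 it was -0.94 (SE 0.14, adjusted p = 0.00132).

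Hadh, the short-chain hydroxyacyl-CoA dehydrogenase, was at 283, 296 and 318 CPM in controls and at 224, 239 and 235 CPM in the knockdown. The controls were close together and all above the knockdown (log2 fold change -0.37, SE 0.16, adjusted p = 0.366), and without control replicate 1 Hadh was called lower at -0.39 (SE 0.13, adjusted p = 0.0490). Acadl, the long-chain dehydrogenase, was at 123, 180 and 190 CPM in controls and at 136, 136 and 148 CPM in the knockdown. Control replicate 1 was the lowest of the 6 libraries there. The call of Acadl (-0.39, SE 0.13, adjusted p = 0.0456) rested on leaving that library out, since the value on 6 libraries was -0.23 (SE 0.21, adjusted p = 0.677).

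The other mitochondrial spiral genes whose groups did not overlap were called in neither fit. Acadvl, the very long chain dehydrogenase, was at 238, 198 and 223 CPM in controls and at 164, 185 and 156 CPM in the knockdown. An opposite-strand neighbour, Dvl2, covers 42.9% of its exon bases, and no source names the strand setting of the counting. Hadha and Hadhb encode the subunits of the trifunctional protein, which works on long chains at the inner membrane. Hadha was at 351, 346 and 359 CPM in controls and at 302, 333 and 336 CPM in the knockdown, a narrow gap (log2 fold change -0.12, SE 0.16) that became 0.12 when scaled by total gene reads. Hadhb was at 193, 232 and 220 CPM in controls and at 152, 163 and 191 CPM in the knockdown (-0.35, SE 0.18, adjusted p = 0.444), and its value was 0.023 in the fit without control replicate 1 and with the GC and length offset. Both subunits were thus lower in every knockdown library on the TMM scale.

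Echs1, the short-chain enoyl-CoA hydratase, was at 413, 248 and 255 CPM in controls and at 191, 246 and 212 CPM in the knockdown. The gap between control replicate 2 and knockdown replicate 2 was small, and the log2 fold change of -0.50 (SE 0.25, adjusted p = 0.426) was -0.20 (SE 0.15) without control replicate 1. Eci1, an enoyl-CoA isomerase for unsaturated chains, was at 63.8, 61.2 and 70.9 CPM in controls and at 52.0, 55.7 and 51.2 CPM in the knockdown (-0.30, SE 0.17, adjusted p = 0.466). The groups overlapped in the remaining 3 genes, Acads (-0.04, SE 0.24), Acaa2 (-0.13, SE 0.22) and Decr1 (0.05, SE 0.22). Without control replicate 1 these 3 values became 0.21, 0.03 and -0.08, so that each changed sign.

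Electron transfer flavoprotein takes electrons from the dehydrogenases and passes them to its oxidoreductase. Etfa, its alpha subunit, was at 134, 249 and 253 CPM in controls and at 165, 184 and 167 CPM in the knockdown. Control replicate 1 was the lowest of all, below the knockdown, and the other controls were the highest. Etfa was at -0.30 (SE 0.27, adjusted p = 0.667) on 6 libraries and was called lower at -0.53 (SE 0.13, adjusted p = 0.0126) without control replicate 1. Etfdh, the oxidoreductase, was at 147, 213 and 244 CPM in controls and 156, 176 and 179 CPM in the knockdown, again with control replicate 1 lowest and the other controls highest, and was not called (-0.41, SE 0.14, adjusted p = 0.0507 without that library).

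Etfb, the beta subunit, could not be read from the counts. The files assigned only 117 to 209 reads to it per library (3.35 to 6.92 CPM), while the deposited FPKM, which are per length of transcript, were 447, 282 and 276 in controls and 274, 351 and 255 in the knockdown. These FPKM overlapped between the groups, with control replicate 1 highest and knockdown replicate 3 lowest. Etfb had 66.8 FPKM per CPM where the median of the members was 0.544. A same-strand gene model, Gm45233, covers 53.0% of the Etfb exon bases and had 0 reads, and its part in the low count was not tested. The count-based log2 fold change of Etfb (-0.25, SE 0.33) remains in the tallies, medians and sums over the members.

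**Figure D2:**
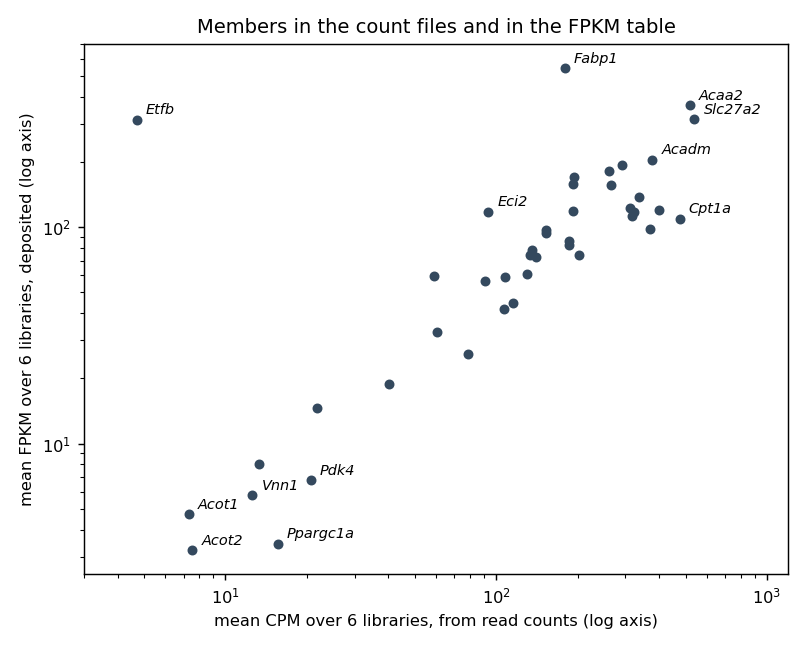
Mean CPM from the read counts (horizontal, log axis) and mean deposited FPKM (vertical, log axis) of the 43 genes over the 6 libraries, each point a gene. Etfb, at 4.70 CPM and 314 FPKM, stands apart from the band of the other genes.

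By FPKM, the scale on which levels can be set between genes, Fabp1 was highest with a mean of 544 over 6 libraries, followed by Acaa2 (367), Slc27a2 (316), Etfb (314) and Acadm (205). The lowest were Acot2 (3.22), Ppargc1a (3.45), Acot1 (4.72) and Vnn1 (5.77). Slc27a2 and Etfb, neighbours in this order, lay closer together than the spread of Etfb over its libraries. Of the 6 genes with higher CPM in every knockdown library, Fabp1 was thus at the top of the order and Acot2, Acot1 and Vnn1 near the bottom.

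None of the 6 genes of peroxisomal oxidation was called on 6 libraries, and 5 of 6 log2 fold changes were below 0 (median -0.27). Pex11a, a membrane protein of peroxisome division and a known target of PPAR-alpha, was at 48.8, 80.0 and 92.8 CPM in controls and at 38.9, 53.6 and 47.9 CPM in the knockdown. Control replicate 1 lay below knockdown replicate 2, so that the groups overlapped, while the other controls were clearly above. Its log2 fold change was -0.66 (SE 0.27, unadjusted p = 0.0458, adjusted p = 0.332), and without control replicate 1 it was called lower at -0.87 (SE 0.15, adjusted p = 0.00260). The bifunctional enzyme genes of the spiral were called in neither fit. Ehhadh was at 296, 368 and 388 CPM in controls and 251, 269 and 326 CPM in the knockdown (-0.31, SE 0.20). Hsd17b4 was at 283, 354 and 377 CPM against 279, 274 and 307 CPM (-0.24, SE 0.19).

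The thiolase copies Acaa1a and Acaa1b, which complete the peroxisomal spiral, share sequence: 16.2% of the 50-base windows of Acaa1a and 35.5% of those of Acaa1b occur in another gene, so reads between them are uncertain. Acaa1a was at 226, 147 and 135 CPM in controls and 137, 158 and 109 CPM in the knockdown, and Acaa1b at 177, 301 and 395 CPM and 277, 277 and 324 CPM. Control replicate 1 was the highest library for Acaa1a and the lowest for Acaa1b. Decr2, the peroxisomal dienoyl-CoA reductase, had a log2 fold change of -0.17 (SE 0.18), which became 0.08 when scaled by total gene reads. Acad11, an acyl-CoA dehydrogenase reported in both organelles, was at 161, 238 and 243 CPM in controls and at 154, 164 and 154 CPM in the knockdown. Its groups overlapped only through control replicate 1, and it was called lower without that library (-0.59, SE 0.13, adjusted p = 0.00676). Eci2, an isomerase found in both organelles, was called in neither fit (-0.26, SE 0.19).

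Set side by side on all 6 libraries with TMM, the mitochondrial and peroxisomal medians of log2 fold change differed by less than the spread between libraries. The difference changed in the other fits given in this paragraph, each time by less than that spread. In the added fit described at the end it was 0.17, a change just above that spread. The median was -0.24 for the 21 mitochondrial and -0.31 for the 9 peroxisomal members, a difference of 0.07 against a spread of 0.09 between replicates (SD). The difference was 0.12 without control replicate 1 and 0.16 with the GC and length offset. Both lie above that spread, but the spread was taken from the 6 libraries with TMM and not from those fits. It was 0.026, 0.041, 0.0077 and 0.014 for the difference without control replicate 3 and knockdown replicates 1, 2 and 3. Values were below 0 in 17 of 21 and in 7 of 9. Scaling by total gene reads moved the medians to -0.00 and -0.08, beside 0.19 for all genes. The groups did not overlap in 8 mitochondrial members lower and 2 higher, and in 1 peroxisomal member lower and 0 higher, beside 10.0% lower and 13.0% higher over all genes. Without control replicate 1 there were 5 lower and 2 higher calls among the mitochondrial and 3 lower and 0 higher among the peroxisomal members, beside 16.1% lower and 16.5% higher over all genes.

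Control replicate 1 took different places for the 2 organelles. Relative to each gene's mean over the libraries, the median of the peroxisomal members was -0.08, 0.24 and 0.28 in control replicates 1, 2 and 3 and -0.26, -0.10 and -0.05 in the knockdown libraries, so control replicate 1 lay among the knockdown libraries. The mitochondrial median was 0.02, 0.09 and 0.21 in controls and -0.18, -0.04 and -0.03 in the knockdown, with no overlap. The 7 members of neither organelle had a median log2 fold change of 0.86 and 5 values above 0 on 6 libraries. Their median relative to each gene's mean was -1.15 in control replicate 1. Without that library their median log2 fold change was 0.35, again with 5 values above 0. This difference between compartments was not tested, since the genes are not replicates.

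Summed over the 11 genes of the mitochondrial spiral, CPM was 2898, 2862 and 2870 in controls and 2171, 2490 and 2305 in the knockdown. The controls lay within a narrow range, control replicate 1 included, and above every knockdown library. Over all 21 mitochondrial members the sums were 4385, 4337 and 4353 CPM in controls and 3454, 3928 and 3663 CPM in the knockdown. The peroxisomal sums were 1419, 1828 and 1793 CPM against 1435, 1675 and 1642 CPM, and control replicate 1 was the lowest of the 6. With CPM of total gene reads, without TMM, the spiral summed to 2470, 2701 and 2769 in controls and 2383, 2581 and 2605 in the knockdown, so that on this scale the groups overlapped. The separation of the mitochondrial sums therefore depends on TMM, whose factors were 0.852 to 0.965 in controls and 1.04 to 1.13 in the knockdown.

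**Figure D3:**
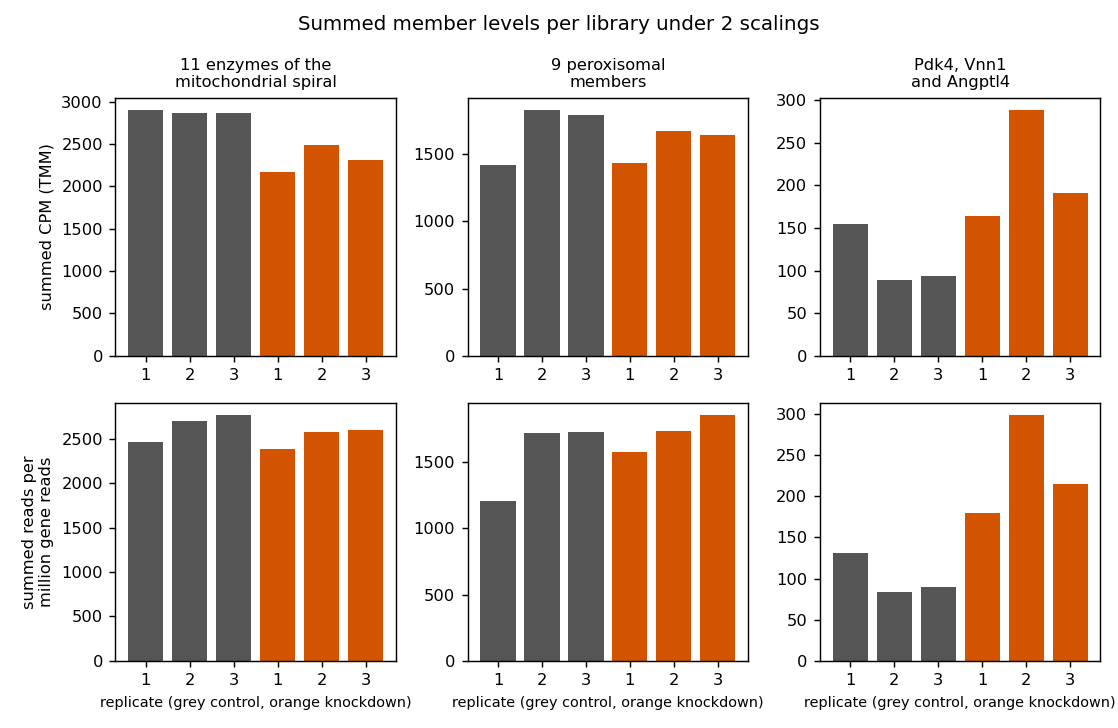
Summed CPM of the mitochondrial spiral, the peroxisomal members and the PPAR-alpha targets Pdk4, Vnn1 and Angptl4 in each library, scaled by TMM and by total gene reads. With TMM the 3 controls of the spiral (2862 to 2898) lie above the knockdown libraries (2171 to 2490), and by total gene reads the groups overlap.

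The acyl-CoA thioesterases, which release free fatty acids from coenzyme A, held members with values in both directions within 1 gene cluster. Acot2, Acot1, Acot4 and Acot3 lie in that order on the plus strand of GRCm38 chromosome 12, from 83987861 to 84060402, a span of 72.5 kb. The protein of Acot2 is mitochondrial, that of Acot1 cytosolic, and those of Acot4 and Acot3 peroxisomal. The genes at the 5′ end had higher and those at the 3′ end lower CPM in the knockdown.

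Acot2 was at 5.33, 6.34 and 4.42 CPM in controls and at 10.2, 8.96 and 10.1 CPM in the knockdown. No library of one group reached the other, and the value hardly moved with control replicate 1: 0.86 (SE 0.23, unadjusted p = 0.00677, adjusted p = 0.157) with it and 0.87 (SE 0.21, adjusted p = 0.0112) without it. Acot1 was at 2.25, 6.48 and 5.56 CPM in controls and at 9.53, 10.0 and 10.0 CPM in the knockdown. Those groups did not overlap either, with 1.05 (SE 0.38, adjusted p = 0.275) on 6 libraries and 0.72 (SE 0.18, adjusted p = 0.0124) without control replicate 1, the lowest library. In Acot1 and Acot2, 18.8% and 27.7% of the 50-base windows occur in another gene, most of them in each other, so their separate values are uncertain.

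Acot4 was at 26.1, 31.5 and 25.3 CPM in controls and at 17.2, 18.7 and 11.7 CPM in the knockdown. All controls were above all knockdown libraries, and the log2 fold change was -0.80 (SE 0.24, unadjusted p = 0.0115, adjusted p = 0.195), or -0.83 (SE 0.19, adjusted p = 0.00998) without control replicate 1. Acot3 was at 29.5, 23.5 and 8.41 CPM in controls and at 5.50, 8.68 and 4.22 CPM in the knockdown. Control replicate 3 was at the level of the knockdown libraries, so that the groups overlapped, and control replicate 1 was the highest. Its log2 fold change was -1.74 (SE 0.49, adjusted p = 0.174) on 6 libraries and -1.37 (SE 0.39, adjusted p = 0.0226) without control replicate 1. In Acot3, 19.5% of the 50-base windows occur in another gene (11.2% in Gm49366), so its value is uncertain too, against 4.88% in Acot4. An antisense gene, 4732463B04Rik, covers 9.21% of the exon bases of Acot4 and 9.08% of those of Acot3.

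The deposited FPKM gave the same order of libraries for Acot2 and Acot4. Acot2 was at 2.30, 2.76 and 1.82 FPKM in controls and 4.45, 3.60 and 4.37 FPKM in the knockdown, and Acot4 at 18.2, 20.3 and 15.7 FPKM and 11.6, 12.8 and 8.99 FPKM. By DESeq2 on 6 libraries Acot2 was called higher (0.85, SE 0.25, adjusted p = 0.0133), and Acot3 (-1.75, SE 0.51, adjusted p = 0.0139) and Acot4 (-0.81, SE 0.27, adjusted p = 0.0446) lower. Acot12, a cytosolic acetyl-CoA hydrolase encoded on chromosome 13, was at 119, 135 and 131 CPM in controls and at 88.8, 120 and 99.4 CPM in the knockdown. Its groups overlapped by a narrow margin and it was called in neither fit (-0.32, SE 0.19, adjusted p = 0.490).

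The ketone body genes of the list had opposite signs. Bdh1, which interconverts acetoacetate and beta-hydroxybutyrate in mitochondria (ENSMUSG00000046598, chromosome 16), was at 69.9, 110 and 116 CPM in controls and at 176, 172 and 155 CPM in the knockdown. The groups were far apart, 98.8 ± 25.2 against 167 ± 11.2 CPM (SD, n = 3). The log2 fold change was 0.76 (SE 0.23, unadjusted p = 0.0126, adjusted p = 0.199) and, without control replicate 1, 0.58 (SE 0.13, adjusted p = 0.00901). That call was lost when an offset for GC content and length was added to the fit without control replicate 1 (0.25, adjusted p = 0.145). Acat1, the mitochondrial acetoacetyl-CoA thiolase that acts in both making and using ketone bodies, was at 206, 256 and 258 CPM in controls and at 151, 186 and 157 CPM in the knockdown. Every control was above every knockdown library, with -0.54 (SE 0.19, unadjusted p = 0.0217, adjusted p = 0.246) on 6 libraries and -0.63 (SE 0.14, adjusted p = 0.00805) without control replicate 1.

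Pdk4, Vnn1 and Angptl4 are known PPAR-alpha targets outside the oxidation steps, and all 3 log2 fold changes were above 0. Vnn1, the pantetheinase vanin 1 at the cell surface, was at 2.25, 7.71 and 6.53 CPM in controls and at 18.5, 13.6 and 26.9 CPM in the knockdown. It had the smallest p of all members, and the lowest knockdown library was well above the highest control. Its log2 fold change was 1.84 (SE 0.48, unadjusted p = 0.00589, adjusted p = 0.150) by edgeR, 1.82 (SE 0.51, adjusted p = 0.00923) by DESeq2, and 1.48 (SE 0.27, adjusted p = 0.00323) without control replicate 1.

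Angptl4, a secreted inhibitor of lipoprotein lipase, was at 140, 59.1 and 66.1 CPM in controls and at 124, 254 and 137 CPM in the knockdown. Control replicate 1 was above knockdown replicates 1 and 3, and the groups overlapped only through it. The log2 fold change was 0.96 (SE 0.42, adjusted p = 0.353) on 6 libraries and 1.47 (SE 0.28, adjusted p = 0.00371) without that library. Pdk4, the kinase that shuts off pyruvate dehydrogenase in fasting, was at 12.0, 22.2 and 20.7 CPM in controls and at 21.0, 20.9 and 27.2 CPM in the knockdown. Apart from control replicate 1 the groups lay together, and Pdk4 was called in neither fit (0.33, SE 0.28, adjusted p = 0.647). The receptor gene Ppara and these 3 targets thus had log2 fold changes of opposite sign. This did not hold for every known target, as Pex11a (-0.66) had the sign of Ppara. Over all 43 members, 31 values were below 0 and 12 above.

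**Figure D4:**
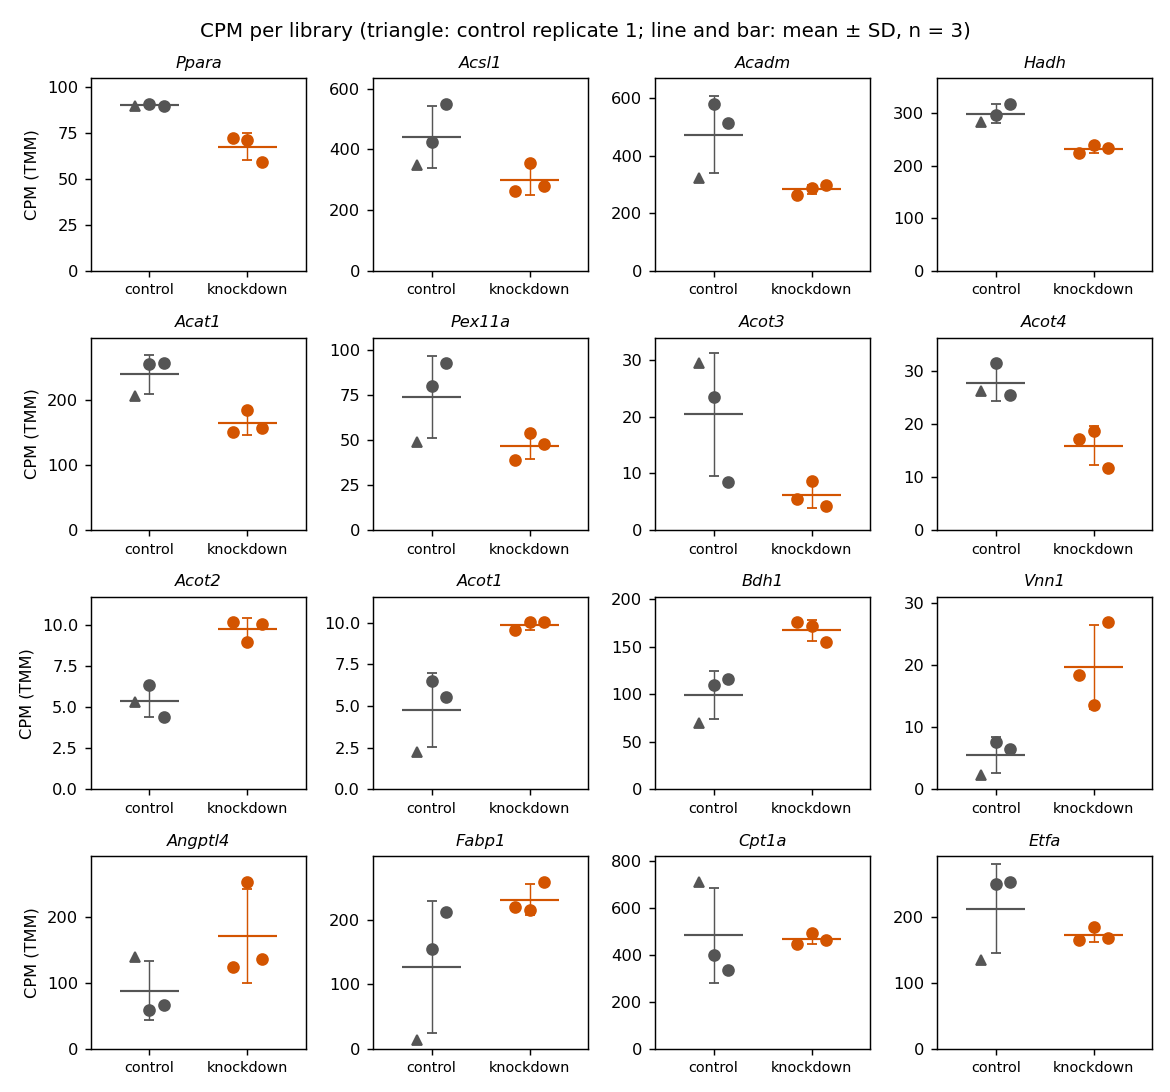
CPM of 16 members in each library, with the group mean and SD (n = 3), linear axes from 0, and a triangle for control replicate 1. In Ppara, Acadm, Hadh, Acat1 and Acot4 every control lies above every knockdown library, in Acot2, Acot1, Bdh1, Vnn1 and Fabp1 below, and in Etfa, Cpt1a and Angptl4 control replicate 1 lies apart from the other controls.

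Other genes of the same pathways were read from lists of 21 peroxisomal genes and of 24 genes of fatty acid oxidation, ketone bodies and PPAR-alpha action, 23 of them tested. By edgeR on 6 libraries 0 of 21 and 0 of 23 were called. At an unadjusted p under 0.05 there were 4 peroxisomal genes lower and 0 higher, and 4 higher and 2 lower in the other list. Over all genes 9.14% were higher and 5.40% lower at that threshold. The peroxisomal genes had 18 of 21 values below 0 and a median of -0.32, which was -0.18 with 15 of 21 below 0 without control replicate 1. In 8 of 21 the groups did not overlap, all lower, where the background over all genes was 10.0%. Phyh, which starts the alpha-oxidation of phytanic acid, was at 1423, 1472 and 1224 CPM in controls and at 744, 958 and 789 CPM in the knockdown (-0.73, SE 0.20, adjusted p = 0.167). Hacl1, a later step of alpha-oxidation, was at 341, 236 and 220 CPM and at 117, 176 and 123 CPM (-0.94, SE 0.26, adjusted p = 0.162). Acox3, an oxidase for branched chains, was at 36.6, 37.2 and 37.0 CPM and at 23.8, 22.2 and 25.6 CPM (-0.63, SE 0.17, adjusted p = 0.160). Ech1, a dienoyl-CoA isomerase, was at 202, 216 and 208 CPM and at 150, 161 and 159 CPM (-0.42, SE 0.16, adjusted p = 0.294). These 4 had the smallest p of their list, and all 4 had groups that did not overlap. All 4 were called lower without control replicate 1, and DESeq2 on 6 libraries called the first 3 named here lower. Those calls come from the libraries that gave the choice, so they are no separate support. Over all genes 16.1% were called lower without control replicate 1 and 2.16% by DESeq2.

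In the other list the 4 genes of smallest p went both ways. Slc16a1, a monocarboxylate transporter that carries ketone bodies and lactate, was at 44.4, 53.3 and 51.2 CPM in controls and at 95.2, 71.4 and 99.7 CPM in the knockdown (0.84, SE 0.20, adjusted p = 0.126). Oxct1, the enzyme of ketone body use that hepatocytes are known to lack, was at 2.05, 3.44 and 2.96 CPM and at 6.93, 4.55 and 6.55 CPM (1.09, SE 0.31, adjusted p = 0.174). The fatty acid omega-hydroxylase genes Cyp4a14 and Cyp4a31 had opposite signs. Cyp4a14 was at 279, 760 and 236 CPM in controls and at 105, 184 and 58.6 CPM in the knockdown (-1.88, SE 0.57, adjusted p = 0.198), and Cyp4a31 at 9.41, 8.97 and 6.04 CPM and 13.2, 17.4 and 10.0 CPM (0.73, SE 0.29, adjusted p = 0.310). None of these 4 had overlapping groups, and each was called in its direction without control replicate 1. As they were chosen by p in the same libraries, this is no separate support. In that fit the list had 3 genes called higher and 6 lower, and the peroxisomal list 0 higher and 6 lower. Over all genes 16.5% were called higher and 16.1% lower in the same fit.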

How the data were processed

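Libraries were made from total liver RNA with an Illumina protocol, per the labels. Per the submitters' processing notes, the authors used FastQC, Trim Galore, HISAT2 (2.10), HTSeq and Cufflinks (2.2.1) on GRCm38 (mm10); the strand setting of the counting is not stated there. The deposited files hold raw read counts per gene for each library, and a table of FPKM that the authors made, linked to them by gene ID. Reads in no gene (2.48% to 5.66%) or in several (4.69% to 6.87%) were left out of the library sizes.

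The read counts were tested with edgeR 4.0.16 in R 4.3.3 (filterByExpr, TMM, quasi-likelihood test, group as the only term, Benjamini-Hochberg over 13767 genes, threshold 0.05), and log2 fold changes are knockdown over control. CPM are relative to the TMM-scaled library size. The script was tested on simulated data. Alternatives were other scalings and filters, DESeq2 1.42.0, limma 3.58.1 on log2 of the deposited FPKM plus 1 or 0.1, an offset for GC content and length (loess), a replicate block, and each library left out. Overlapping exons and shared 50-base windows came from GENCODE annotation and transcripts of GRCm38. Promoter windows came from RefSeq, GRCm38.p6.

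The members and the pathway and marker lists were chosen with earlier results of these data known. Every member could be named. Values per library are given for members called, members whose groups do not overlap and the member of smallest p in each role, and of the other pathway genes for the 4 of smallest p in each list. Markers not found by symbol were left out. The floor of 3 reads covers counting error only, while the standard errors come from the fits and include the spread between libraries. Protein sequences were not used here.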

Additional observations from a re-analysis of the deposited data

How the results depend on the processing

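Over all genes, 102 were called higher and 17 lower. Higher calls numbered 235 when scaled by total gene reads, 213 with no filter on low counts, 636 by DESeq2, 318 with the GC and length offset, and 0 to 2348 with 1 library left out. Lower calls numbered 34 with no filter, 298 by DESeq2, 27 by limma on log2(FPKM + 1), 301 with the offset, and 0 to 2284 with 1 library left out. Where both counts were 0, the genes at an unadjusted p under 0.05 were 1633 without control replicate 2, and 1130 and 1224 without knockdown replicates 1 and 3. Control replicate 1 gave the upper ends. A fit added after seeing the data, without it and with the offset, called 1746 higher and 2884 lower.

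Member calls, 0 and 0 as reported, were 2 higher and 2 lower by DESeq2, 1 and 1 with the offset (Vnn1 and Acat1, where 2.32% and 2.19% of genes were called), 0 to 5 higher and 0 to 12 lower with 1 library left out, and 5 and 18 in the added fit (12.3% and 20.3% of genes). Calls of other pathway genes were 2 higher and 4 lower by DESeq2, 1 lower with the offset, 0 to 3 and 0 to 12 with 1 library left out, and 3 and 16 in the added fit. Over all genes DESeq2 called 4.62% higher and 2.16% lower. The fit without control replicate 1 gave the upper ends, and there 16.5% and 16.1% of all genes were called. The median of the members was -0.0015 when scaled by total gene reads and -0.39 in the added fit. For the mitochondrial members it was -0.0015 by total gene reads, -0.33 with the offset, -0.24 to -0.15 with 1 library left out and -0.38 in the added fit, and for the peroxisomal members -0.077, -0.49 and -0.55 by total gene reads, with the offset and in the added fit. The mitochondrial minus the peroxisomal median was 0.17 in the added fit. The cause was not tested.

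The replicate block was run because the labels share numbers 1 to 3. Deviations of same-numbered libraries correlated at 0.25, -0.08 and 0.29, and not every library correlated best with its own number. With 3 libraries per group and control replicate 1 apart from the others, these correlations cannot decide whether the numbers pair the samples. With the replicate block 33 genes were called higher and 2 lower over all genes, 0 members either way, and Cpt1a was at 0.035.

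Of the 43 members, those named here changed sign under some settings. By total gene reads the log2 fold changes were 0.040 for Slc27a2, 0.22 for Cpt1a, 0.051 for Slc25a20, 0.21 for Acads, 0.12 for Hadha, 0.11 for Acaa2 and 0.076 for Decr2. With no filter Cpt1a was at 0.014 and Acads at 0.013. By limma on log2(FPKM + 1) and log2(FPKM + 0.1) Cpt1a was at 0.029 and 0.030, Acads at 0.088 and 0.089 and Decr1 at -0.019 and -0.019. Acaa1b was at -0.0083 by median ratio size factors and by DESeq2. With the offset Decr1 was at -0.15 and Acaa1b at -0.13. The added fit gave 0.055 for Cpt1a, 0.023 for Hadhb, -0.080 for Decr1 and -0.50 for Acaa1b. With 1 library left out the range was -0.35 to 0.67 for Ppargc1a, -0.25 to 0.36 for Cpt1a, -0.17 to 0.21 for Acads, -0.21 to 0.033 for Acaa2, -0.079 to 0.20 for Decr1, -0.49 to 0.042 for Etfb and -0.23 to 0.29 for Acaa1b.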
